A study of Mus musculus with 17 samples.

Results

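The comparison set the repressed dnBrg1 line against the repressed dnChd4 line, which made 4 of the 17 arrays of the series, 2 for each line. Both are stable derivatives of 3134 cells, a mouse mammary epithelial line, and both also carry a tetracycline-regulated transactivator. On top of it the dnBrg1 line holds an integrated Flag-tagged dominant-negative form of Brg1, and the dnChd4 line holds the Chd4 equivalent, which a single label field calls Chd4. The arrays were chosen by their titles. In all 4 of them tetracycline was present, so the transgenes were meant to be off: stocks were kept in 5 µg/ml tetracycline, and RNA was taken 48 h after plating in medium that still held the drug and charcoal-stripped serum. The 4 induced arrays of the same lines, plated without tetracycline for 48 h, and the 2 repressed arrays of the dnSnf2h line, which carries a dominant-negative Snf2h instead, were used for comparison. The control line entered only an alternative fit with all 17 arrays. The labels say neither whether the arrays of a group are separate cultures nor whether each line is a clone or a pool of clones. The p-values therefore speak only for the scatter of these arrays, part or all of which may be technical, and the integrated transgene cannot be told apart from anything else that separates the lines.

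Brg1, the product of Smarca4, is the motor of SWI/SNF complexes, which slide or eject nucleosomes at promoters and enhancers. Chd4 is a motor of the NuRD complex, which joins nucleosome movement to histone deacetylation. In a tetracycline-off system the drug keeps the transactivator from its promoter, so repressed lines can differ by their integrated DNA, by any leakage of the transgene and by whatever each derivative gained while it was selected and grown. Leakage was not tested.

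The deposited log2 signals had array medians of 5.58 and 5.63 for the repressed dnBrg1 line, against 5.58 and 5.56 for the repressed dnChd4 line. Across genes, which are not independent replicates, replicate arrays correlated at 0.9967 in the dnBrg1 line and 0.9977 in the dnChd4 line, and arrays of different lines at 0.9877 to 0.9898. Epithelial markers were measured with 22 genes, of which 0 were called between the lines and 6 were dim in both, dim being a mean under the 30th percentile of all genes, 4.76. Their summed log2 level ran between 110.8 and 113.2 in dnBrg1 arrays and between 112.6 and 112.8 in dnChd4 arrays. The defining epithelial cadherin gene Cdh1 stood at 5.17 and 5.24 in dnBrg1 arrays, against 5.17 and 5.17 in dnChd4 arrays. The adhesion gene Epcam was dim in each array, at 4.10 and 4.19 against 4.0 and 4.07. The mesenchymal filament gene Vim read 12.80 and 12.71 in dnBrg1 arrays and 12.93 and 12.84 in dnChd4 arrays. These defining epithelial genes were thus at or near the dim level in both lines, whatever the label of the cells.

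With limma and Benjamini-Hochberg adjustment at 0.05 over 19938 genes, 1611 genes were higher in the repressed dnBrg1 line, 8.08% of all genes tested, and 1267 were lower, 6.35%. Of these, 157 were higher and 86 lower by at least 2-fold, and 13 higher and 9 lower by at least 4-fold. The median difference of all genes was 0.01 on the log2 scale. Both dnBrg1 arrays lay on the same side of both dnChd4 arrays for every called gene, but also for 51.6% of all genes. The counts depended on single arrays. Without dnChd4 replicate 2 they were 720 higher and 625 lower, and without dnChd4 replicate 1 they were 1059 higher and 800 lower. Without dnBrg1 replicate 1 they were 887 higher and 974 lower, and without dnBrg1 replicate 2 they were 1304 higher and 754 lower.

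The genes furthest above the dnChd4 line were near or below the dim level there and well measured in the dnBrg1 line. Nckap1l, a subunit of the WAVE actin-nucleation complex best known from blood cells, read 8.05 and 8.0 in dnBrg1 arrays, against 4.43 and 4.33 in dnChd4 arrays. That is a difference of 3.64 ± 0.09 (SE) on the log2 scale, or 12.5-fold (limma adjusted p = 4.8e-12). Myh10, the heavy chain of non-muscle myosin IIB, read 8.55 and 8.33 in dnBrg1 arrays, against 4.98 and 5.11 in dnChd4 arrays (10.5-fold, limma adjusted p = 5.77e-11). Aldh1a7, a cytosolic aldehyde dehydrogenase, read 7.30 and 7.16 in dnBrg1 arrays, against 4.09 and 4.18 in dnChd4 arrays (8.57-fold, limma adjusted p = 2.95e-08). For all 3 genes the groups were far apart, and no array came near the other line. Bche, which encodes butyrylcholinesterase, read 6.56 and 6.58 in dnBrg1 arrays and 3.90 and 3.86 in dnChd4 arrays. Cd48, a surface receptor of the SLAM family found on leukocytes, read 5.83 and 5.94 in dnBrg1 arrays and 3.35 and 3.45 in dnChd4 arrays. Both were dim in the dnChd4 line and above the dim level in the dnBrg1 line, as were 77 called genes in all. An array cannot tell fewer expressing cells from less RNA per cell.

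The other leading genes higher in the dnBrg1 line were measured in both lines. Trp53inp1, a p53 target that takes part in cell death and autophagy, read 8.69 and 8.37 in dnBrg1 arrays, against 6.32 and 6.0 in dnChd4 arrays, a log2 difference of 2.37 ± 0.27 (SE, limma adjusted p = 3.57e-05). Jup, which encodes plakoglobin of desmosomes and adherens junctions, read 7.98 and 7.85 in dnBrg1 arrays and 5.68 and 5.93 in dnChd4 arrays. Flrt2, an adhesion and guidance protein of the cell surface, read 9.02 and 8.67 in dnBrg1 arrays and 6.64 and 6.57 in dnChd4 arrays. Groups did not overlap for these genes, as for every called gene, and replicates lay closer to each other than to the other line. Serpinb8, an intracellular protease inhibitor, Thbs2, a matricellular glycoprotein, Selenop, the selenium carrier, and Eya1, a developmental transcriptional coactivator, were higher by 2.46, 2.10, 1.97 and 1.95 on the log2 scale.

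On the lower side, Cdh5, the gene of vascular endothelial cadherin, read 3.86 and 4.47 in dnBrg1 arrays, against 8.12 and 8.08 in dnChd4 arrays. Its difference was -3.93 ± 0.16 (SE) on the log2 scale, a level 0.0654 times that of the dnChd4 line (limma adjusted p = 1.36e-09). Cdh5 lies in a stretch of chromosome 8, described below, whose genes that were not dim had a median difference of -0.20. Nid1, or nidogen 1, which links laminin and type IV collagen in basement membranes, read 4.78 and 4.64 in dnBrg1 arrays, against 7.65 and 7.99 in dnChd4 arrays (-3.11, limma adjusted p = 5.54e-08). The dnBrg1 arrays were thus at or under the dim level for both genes, as they were for 32 genes called lower whose dnChd4 mean was above it. Sncg, the gene of gamma-synuclein, read 5.53 and 6.18 in dnBrg1 arrays, against 9.10 and 8.73 in dnChd4 arrays. Afap1l2, an adaptor of Src and PI3-kinase signalling, read 5.63 and 5.36 in dnBrg1 arrays and 8.39 and 8.05 in dnChd4 arrays. Sorbs2, an adaptor of stress fibres, read 4.83 and 4.89 in dnBrg1 arrays and 7.06 and 7.05 in dnChd4 arrays. Replicates of these genes lay far closer to each other than to the other line. The histone gene H4c9 also read lower, at 7.71 and 7.74 in dnBrg1 arrays against 10.47 and 10.45 in dnChd4 arrays, but histone H4 genes are near-identical copies and the probe set may read several of them.

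Other leading genes lower in the dnBrg1 line were Sting1, the adaptor of cytosolic DNA sensing, which read 6.71 and 6.5 in dnBrg1 arrays, against 8.38 and 8.34 in dnChd4 arrays. Padi3, which converts arginine to citrulline in hair follicle proteins, read 6.26 and 6.56 in dnBrg1 arrays and 8.33 and 8.34 in dnChd4 arrays. Cxcl3, a neutrophil chemokine, read 6.38 and 6.31 in dnBrg1 arrays and 8.32 and 8.42 in dnChd4 arrays. Each was lower in both dnBrg1 arrays than in both dnChd4 arrays, with a wide gap. Dppa4, a gene best known from pluripotent cells, Pla1a, a phospholipase that acts on phosphatidylserine, Shtn1, a regulator of axon formation, and Sh3rf2 differed by -2.01, -2.0, -1.87 and -1.71 on the log2 scale. Over the 30 leading genes and the alternatives tried, 595 of 598 values stayed past the threshold in the same direction. The 3 that did not were those of Cxcl3, Padi3 and Slc7a11 in a fit that added the control arrays. All 30 genes were chosen for the largest differences in these arrays, which most alternatives used again, so such stability was likely beforehand.

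**Figure D1:**
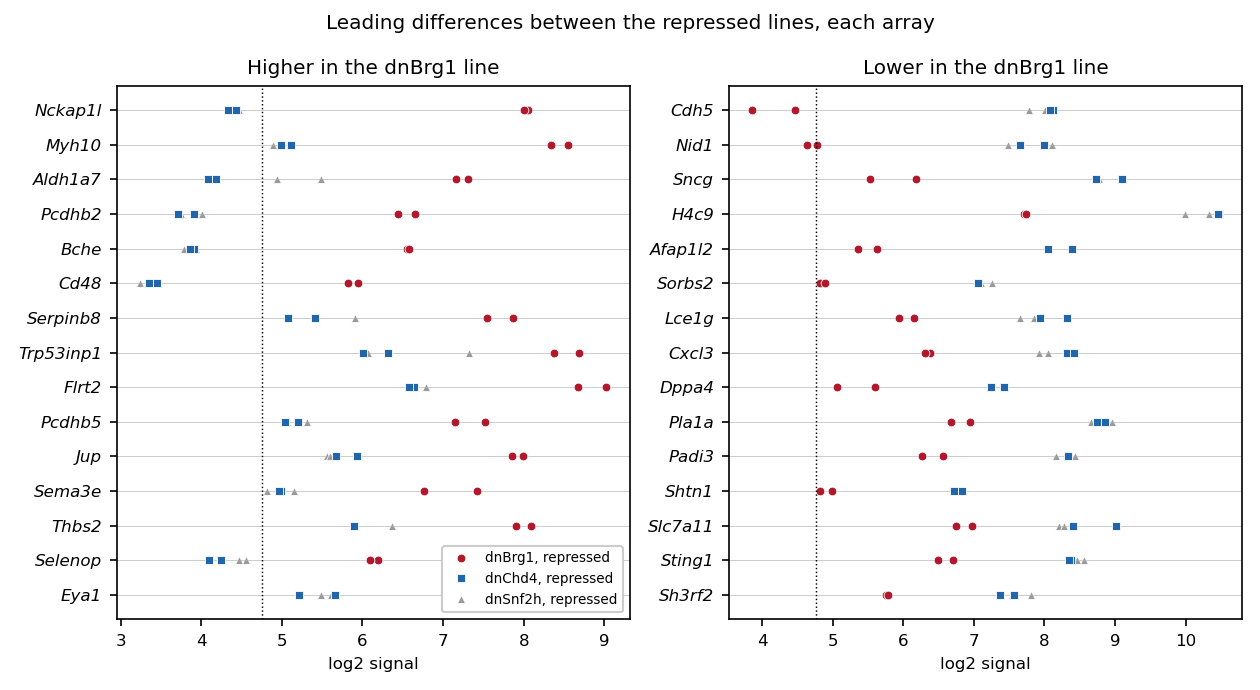
Log2 signal in each repressed array for the 15 genes most above (left) and the 15 most below (right) the dnChd4 line, with dnBrg1 as red circles, dnChd4 as blue squares and dnSnf2h as grey triangles; the dotted line is the dim level of 4.76. Red and blue points do not overlap for any gene shown, which was a condition of the choice, and the grey points mostly lie with the blue.

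The leading genes differed in the letters of their promoters, so 3 that were near or below the dim level in the lower line are shown. The sequences are from RefSeq on GRCm38.p6, 250 bases before to 50 after the annotated start, on the strand of the gene, with CpG pairs in capitals. The Myh10 window is chr11:68691665-68691964 on the plus strand, the Nid1 window chr13:13437352-13437651 on the plus strand, and the Aldh1a7 window chr19:20727507-20727806 on the minus strand.
Myh10: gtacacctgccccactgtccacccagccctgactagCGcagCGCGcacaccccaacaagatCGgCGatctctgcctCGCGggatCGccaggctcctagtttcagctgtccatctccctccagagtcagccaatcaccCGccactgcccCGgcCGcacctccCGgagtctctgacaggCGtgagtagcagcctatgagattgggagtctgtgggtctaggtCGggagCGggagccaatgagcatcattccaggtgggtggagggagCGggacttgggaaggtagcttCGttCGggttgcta
Nid1: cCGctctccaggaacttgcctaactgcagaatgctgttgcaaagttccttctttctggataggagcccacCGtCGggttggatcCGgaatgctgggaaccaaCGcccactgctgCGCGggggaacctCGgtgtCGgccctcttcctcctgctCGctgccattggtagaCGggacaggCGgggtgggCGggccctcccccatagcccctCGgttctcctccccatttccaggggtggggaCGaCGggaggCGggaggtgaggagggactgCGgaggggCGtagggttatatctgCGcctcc
Aldh1a7: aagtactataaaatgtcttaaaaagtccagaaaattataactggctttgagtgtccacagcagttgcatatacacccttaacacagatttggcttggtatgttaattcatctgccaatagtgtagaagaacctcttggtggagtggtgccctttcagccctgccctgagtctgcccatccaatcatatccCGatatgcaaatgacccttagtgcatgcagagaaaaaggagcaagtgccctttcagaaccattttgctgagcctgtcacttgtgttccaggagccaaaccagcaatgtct
The Myh10 promoter holds 18 CpG pairs and the Nid1 promoter 20, while that of Aldh1a7 holds 1. The Aldh1a7 window contains TATAAA, but at its upstream end, far from the annotated start. All 3 contain CCAAT on either strand, and that of Nid1 also holds GGGCGG. Across 15563 tested genes with a promoter in the table the median was 15 CpG pairs. It was 21 for the 1285 genes called higher and 20 for the 941 called lower, against 20 for all genes that were not dim. For the 60 genes that were dim in the dnChd4 line and higher in the dnBrg1 line the median was 7, and for the 22 dim in the dnBrg1 line and lower there it was 6.5. Genes that are dim on average had a median of 3. The TATAAA box was found on either strand in 7.0% of promoters of genes called higher and 6.9% of those called lower, against 12.1% of all promoters and 7.6% of those of genes that were not dim. The GGGCGG box was found in 66.9% and 63.4%, against 49.9% of all and 61.3% of those not dim. Shares of CCAAT, of the AP-1 letters TGANTCA and of the E box CACGTG were 39.4%, 4.5% and 8.9% for genes called higher, 39.2%, 5.2% and 10.3% for genes called lower, and 38.3%, 7.0% and 8.4% for all. Called genes as a whole thus had the promoter letters of measured genes, and the genes that were dim in a line had fewer CpG pairs.

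The genes of the targeted remodelers differed little between the repressed lines. Smarca4 read 9.66 and 9.46 in dnBrg1 arrays, against 9.31 and 9.22 in dnChd4 arrays, a log2 difference of 0.29 that did not pass the threshold (limma adjusted p = 0.109). In the induced arrays it read 9.61 and 9.73 in the dnBrg1 line, near the level of the repressed dnBrg1 arrays. Whether its probe set reads the transgene was not tested. Chd4 read 10.36 and 10.15 in dnBrg1 arrays, against 10.56 and 10.35 in dnChd4 arrays (-0.20, limma adjusted p = 0.319). It read 10.06 and 10.01 in induced dnBrg1 arrays and 12.27 and 12.27 in induced dnChd4 arrays, and was thus higher only in the line that carries the Chd4 transgene. The repressed arrays of the lines overlapped for it. Smarca2, which encodes Brm, the other SWI/SNF motor, was higher in the dnBrg1 line, at 9.52 and 9.24 against 8.52 and 8.48 (limma adjusted p = 0.000339). Smarca5, the ISWI motor Snf2h, was lower, at 9.27 and 8.93 in dnBrg1 arrays against 9.75 and 9.79 in dnChd4 arrays (limma adjusted p = 0.00136). It lies on chromosome 8 in a run of neighbouring genes lower in the dnBrg1 line. The related Smarca1 was dim in each array, and the NuRD motor Chd3 (-0.30) and the glucocorticoid receptor gene Nr3c1 (0.20) did not pass the threshold.

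The 3 lists of complex subunits were read against 8.08% of all genes higher and 6.35% lower. Among 25 SWI/SNF subunits 4 were higher (16%) and 5 lower (20%), and 2 were lower without dnBrg1 replicate 2, without dnChd4 replicate 1 or without dnChd4 replicate 2. Over all 47 lists there were 73 counts of 1 to 5 members in a direction, and 48 of them moved by more than 1.5 times when some array of the comparison was left out. The higher ones beside Smarca2 were Bcl7a, Arid2 and Smarcc2, a core scaffold subunit, by 0.63, 0.53 and 0.52 on the log2 scale. The lower ones were Phf10 (-0.63), Ss18 (-0.48), Brd7 (-0.46), the core subunit Smarcb1 (-0.41) and Actl6a (-0.35). Phf10 and Brd7 belong to the PBAF form of the complex, and so does Arid2, which was higher. Runs of neighbouring genes that moved in the same direction, described below, held 1 of the higher and 2 of the lower SWI/SNF members. Of 15 NuRD subunits, Mta2 was higher at 9.64 and 9.58 in dnBrg1 arrays against 9.15 and 9.19 in dnChd4 arrays. Mta2 lies on chromosome 19 in a run of neighbouring genes higher in the dnBrg1 line. The deacetylase Hdac2 was lower at 9.94 and 9.89 in dnBrg1 arrays against 10.38 and 10.28 in dnChd4 arrays. Of 11 ISWI subunits 3 were higher, namely Baz2b (0.72), Chrac1 (0.46) and Baz2a (0.38), and Smarca5 was the member that was lower.

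Genes of the amino acid stress response were the list with the largest share called of the 47. ATF4 is a transcription factor that rises when amino acids run short or proteins misfold, and it drives amino acid import, serine synthesis and folate enzymes. Of 20 genes, 15 were lower in the dnBrg1 line (75%, against 6.35% of all genes) and 0 were higher, and 18 had both dnBrg1 arrays below both dnChd4 arrays, as did 23.8% of all genes. The median difference was -0.48, against 0.01 for all genes. Slc7a11, the cystine importer, read 6.97 and 6.75 in dnBrg1 arrays, against 8.41 and 9.02 in dnChd4 arrays (limma adjusted p = 2.33e-06). Aldh1l2, a mitochondrial folate enzyme, read 8.94 and 8.82 in dnBrg1 arrays, against 10.15 and 10.33 in dnChd4 arrays (limma adjusted p = 7.67e-06). Slc6a9, a glycine transporter, read 8.80 and 8.92 in dnBrg1 arrays, against 9.67 and 9.85 in dnChd4 arrays (limma adjusted p = 5.54e-05). In all 3 genes both dnBrg1 arrays were below both dnChd4 arrays, and Slc7a11 had dnChd4 arrays that differed most from each other.

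Several steps of the ATF4 programme were among the lower genes. Mthfd2, a mitochondrial folate enzyme, read 8.74 and 8.82 in dnBrg1 arrays and 9.62 and 9.84 in dnChd4 arrays. Phgdh, the first enzyme of serine synthesis, read 10.07 and 10.11 in dnBrg1 arrays and 10.80 and 10.93 in dnChd4 arrays. Chac1, a glutathione-degrading enzyme, read 7.60 and 7.81 in dnBrg1 arrays and 8.38 and 8.80 in dnChd4 arrays. Asns, asparagine synthetase, read 12.07 and 12.03 in dnBrg1 arrays, against 12.38 and 12.50 in dnChd4 arrays. In these genes dnChd4 replicate 2 was the higher of its pair, which held for 17 of the 20 list members. The mean level over the list was 8.78 in each of the dnBrg1 arrays, against 9.21 and 9.46 in dnChd4 arrays and 9.18 in each dnSnf2h array. The Atf4 mRNA itself read 9.80 and 9.87 in dnBrg1 arrays and 9.90 and 10.18 in dnChd4 arrays (limma adjusted p = 0.271). Ddit3, the gene of the stress factor CHOP, differed by 0.11 (limma adjusted p = 0.592). Without dnChd4 replicate 2 the list had 6 members lower and a median of -0.33. Without dnBrg1 replicate 2 it had 10 lower and a median of -0.50, and 0 members were higher in either case.

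In the induced arrays the list differed less. There 4 of 20 members were lower (8.2% of all genes were) and 0 higher (7.26% of all genes), with a median of 0.08. Aldh1l2 kept its difference, at 6.53 and 6.65 in induced dnBrg1 arrays against 8.42 and 8.23 in induced dnChd4 arrays. Slc1a5, a glutamine transporter, was lower in the repressed dnBrg1 line by 0.61 on the log2 scale and read 0.29 above the dnChd4 line in induced cells, and the change in its difference passed the limma interaction test (adjusted p = 0.0122). Psph, the last enzyme of serine synthesis, did the same, at -0.52 and 0.32 (interaction adjusted p = 0.0173). Over all genes 1.28% passed that test. List means were 8.26 and 8.25 in induced dnBrg1 arrays and 8.36 and 8.44 in induced dnChd4 arrays, below those of the repressed arrays in both lines.

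**Figure D2:**
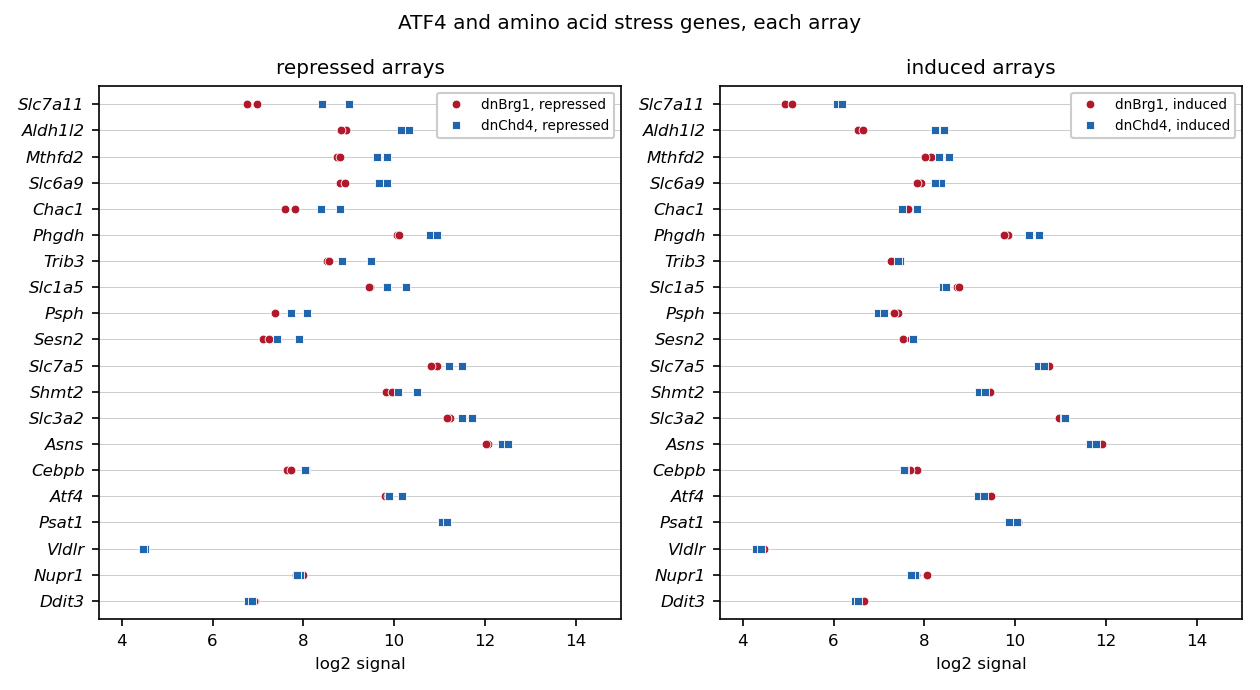
Log2 signal of the 20 ATF4 and amino acid stress genes in each repressed array (left) and each induced array (right), dnBrg1 as red circles and dnChd4 as blue squares, ordered by the repressed difference. In repressed arrays 18 genes have both red points left of both blue points, and in induced arrays the colours lie closer together except for genes such as Aldh1l2 and Slc7a11.

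Glycolysis and hypoxia genes, which raise sugar use when oxygen falls, included many lower members. Of 24 genes 12 were lower (50%, against 6.35% of all genes) and 1 was higher (4.17%, against 8.08%), with a median of -0.27, against 0.01 for all genes. Pfkl, a subunit of phosphofructokinase, read 8.21 and 8.19 in dnBrg1 arrays, against 8.91 and 9.40 in dnChd4 arrays (limma adjusted p = 0.000171). Pdk1, which holds pyruvate back from mitochondria, read 5.75 and 5.66 in dnBrg1 arrays, against 6.40 and 6.28 in dnChd4 arrays (limma adjusted p = 0.000233). The hypoxia target Bnip3 read 8.31 and 8.10 in dnBrg1 arrays, against 8.65 and 8.98 in dnChd4 arrays. These groups did not overlap, though the gap was narrow for Bnip3. Aldoa, Tpi1, Pgk1 and Ldha of the glycolytic chain were lower by less, with differences of -0.43, -0.41, -0.32 and -0.30. The exception was Egln3, an oxygen-sensing prolyl hydroxylase, at 7.01 and 6.59 in dnBrg1 arrays against 5.58 and 5.75 in dnChd4 arrays. The lower count was 3 without dnChd4 replicate 2, 4 without dnBrg1 replicate 2 and 7 without dnBrg1 replicate 1. In induced arrays 7 of the 24 were lower and 3 higher, where 8.2% of all genes were lower and 7.26% higher. Bnip3 was then the other way round, with a difference of 0.57 (limma adjusted p = 0.00319).

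Cholesterol synthesis genes were on the higher side. Of 18 genes 7 were higher (38.9%, against 8.08% of all genes) and 1 was lower. Cyp51, lanosterol demethylase, read 9.04 and 8.90 in dnBrg1 arrays, against 8.33 and 8.12 in dnChd4 arrays (limma adjusted p = 0.000509). Hsd17b7, a later enzyme of the same pathway, read 9.30 and 9.26 in dnBrg1 arrays, against 8.59 and 8.55 in dnChd4 arrays (limma adjusted p = 0.000733). Groups were clearly apart in both. The others were the early enzyme Hmgcs1 (0.64), Sqle (0.57), Mvd (0.57), the feedback protein Insig1 (0.56) and Idi1 (0.40). Ebp, sterol isomerase, was lower at 7.54 and 7.83 in dnBrg1 arrays against 8.53 and 8.55 in dnChd4 arrays. It lies on chromosome X, which held a run of neighbouring genes lower in the dnBrg1 line. The induced arrays gave 6 members higher and 1 lower, and leaving out any array of the comparison left 6 or 7 higher.

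Transcription factors of lineage choice held 11 higher members among 40 (27.5%, against 8.08% of all genes) and 1 lower (2.5%, against 6.35%). Sox4, a factor of progenitor cells and epithelial plasticity, read 9.22 and 9.33 in dnBrg1 arrays, against 7.41 and 7.50 in dnChd4 arrays (3.53-fold, limma adjusted p = 9.12e-07). Klf4, a factor of epithelial differentiation and pluripotency, read 8.52 and 8.25 in dnBrg1 arrays, against 6.89 and 6.87 in dnChd4 arrays (2.83-fold, limma adjusted p = 8.13e-06). Tbx3, a T-box factor of mammary development, read 8.56 and 8.38 in dnBrg1 arrays, against 7.17 and 7.02 in dnChd4 arrays (2.58-fold, limma adjusted p = 2.76e-06). The groups were well apart in all 3 genes. Id2, Sox5, Lef1, Id3, Meis1, Meis2, Sox9 and Dlx1 were higher by 0.45 to 1.18, and Foxd1 was lower (-0.50). The luminal factor Gata3, kept with the milk and luminal genes, read 9.44 and 9.09 in dnBrg1 arrays and 8.06 and 8.10 in dnChd4 arrays. The casein genes of the same list were not called. In induced arrays Sox4 and Klf4 were again higher in the dnBrg1 line, by 1.56 and 1.21. Tbx3 differed there by 0.23, and its change passed the interaction test (adjusted p = 0.00207). The list's counts were 8 to 10 higher when an array of the comparison was left out.

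Some secreted ligands and guidance cues also differed. Of 35 semaphorins, ephrins and guidance receptors 7 were higher (20%, against 8.08% of all genes) and 3 lower (8.57%, near the 6.35% of all genes). Sema3e, which repels endothelial sprouts and axons, read 7.42 and 6.76 in dnBrg1 arrays, against 4.98 and 4.97 in dnChd4 arrays (limma adjusted p = 9.12e-07). Sema3c read 9.28 and 9.01 in dnBrg1 arrays, against 7.19 and 7.40 in dnChd4 arrays (limma adjusted p = 1.11e-07). The ephrin gene Efna5 read 8.99 and 8.65 in dnBrg1 arrays, against 7.35 and 7.33 in dnChd4 arrays. The spread within the dnBrg1 line was widest for Sema3e, and groups did not overlap in any of them. Sema6d was higher by 1.28, and Slit2, a secreted repellent, was lower at 6.47 and 6.27 in dnBrg1 arrays against 7.0 and 7.02 in dnChd4 arrays. Of 32 Wnt pathway genes 7 were higher (21.9%) and 1 was lower (3.12%). The Wnt antagonist Sfrp2 read 7.71 and 7.23 in dnBrg1 arrays, against 5.98 and 5.76 in dnChd4 arrays. The ligand Wnt5a read 6.31 and 5.95 in dnBrg1 arrays, against 4.73 and 4.98 in dnChd4 arrays. The other higher members were Wnt10b (0.77), the co-receptor Lrp5 (0.65), the ligase Rnf43 (0.62), and the receptors Fzd6 (0.52) and Fzd1 (0.35), while Fzd2 was lower (-0.40).

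Chemokines and acute-phase genes moved both ways. Of 30 chemokines and cytokines 2 were higher (6.67%, near the 8.08% of all genes) and 5 lower (16.7%, against 6.35%). Cxcl12, the ligand of Cxcr4, read 9.40 and 9.21 in dnBrg1 arrays, against 7.88 and 7.42 in dnChd4 arrays (limma adjusted p = 2.89e-06). Ccl5 was lower at 5.97 and 6.04 in dnBrg1 arrays against 6.89 and 7.23 in dnChd4 arrays. The serum amyloid gene Saa3 was higher at 10.60 and 10.66 in dnBrg1 arrays against 8.84 and 8.59 in dnChd4 arrays. Ceruloplasmin, Cp, was lower at 7.92 and 7.62 against 9.69 and 8.88. Of these, Cxcl12 and Saa3 were clearly higher in both dnBrg1 arrays, and the dnChd4 arrays of Cp lay well apart from each other. Among 21 glucocorticoid receptor targets, of interest because the 3134 cells are a model of that receptor, 1 was higher and 4 were lower. Mt2, a metallothionein, read 4.86 and 4.92 in dnBrg1 arrays, against 6.24 and 6.73 in dnChd4 arrays. Its neighbour and paralog Mt1 read 9.92 and 10.01 in dnBrg1 arrays, against 9.60 and 9.57 in dnChd4 arrays. The transglutaminase gene Tgm2 was lower by a log2 difference of -1.05.

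Single matrix genes differed in both directions. Fn1, fibronectin, read 12.41 and 12.28 in dnBrg1 arrays, against 11.79 and 11.73 in dnChd4 arrays. Vcan, the large proteoglycan versican, read 7.93 and 7.42 in dnBrg1 arrays, against 6.33 and 6.02 in dnChd4 arrays. Mmp3, or stromelysin 1, read 6.21 and 6.17 in dnBrg1 arrays, against 4.36 and 4.18 in dnChd4 arrays. Those genes were higher in the dnBrg1 line with no overlap. Col1a2, a chain of type I collagen, read 11.60 and 11.86 in dnBrg1 arrays, against 12.65 and 12.49 in dnChd4 arrays. Col8a1 read 9.07 in both dnBrg1 arrays, against 10.02 in both dnChd4 arrays. Timp1, an inhibitor of metalloproteases, read 8.09 and 8.16 in dnBrg1 arrays, against 9.27 and 9.55 in dnChd4 arrays. Those genes were lower, again with no overlap. By list, 2 of 22 collagens were higher (9.09%, near the 8.08% of all genes) and 3 lower (13.6%, against 6.35% of all genes). Of 21 matrix glycoproteins 5 were higher and 3 lower, and of 22 proteases and inhibitors 4 were higher and 4 lower. Of the lists for other cell types, mesenchymal markers had 6 of 18 higher (33.3%) and 3 lower (16.7%). Without dnChd4 replicate 2 that was 2 higher and 3 lower, and without dnBrg1 replicate 1 it was 3 higher and 2 lower.

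The leading list included genes named for other cell types, so those markers were read as whole lists. The shares of all genes beside them were 8.08% higher and 6.35% lower. Of 12 endothelial markers 0 were higher and 2 were lower, Cdh5 and Flt1, and 3 were dim in both lines. Their summed log2 level was 58.3 to 59.6 in dnBrg1 arrays and 63.6 to 63.8 in dnChd4 arrays, and Cdh5 alone made most of that gap. Without it the other 11 markers summed to 54.4 to 55.1 in dnBrg1 arrays and 55.6 to 55.7 in dnChd4 arrays. The defining gene Pecam1 read 4.59 and 4.32 in dnBrg1 arrays and 4.49 and 4.49 in dnChd4 arrays, below the dim level. The receptor gene Tek was dim in each array too. Of 15 macrophage and leukocyte markers 3 were higher (Lcp1, Lyz2 and Cd68), 1 was lower (Cd14) and 9 were dim in both lines. Their summed level was 72.7 to 73.2 in dnBrg1 arrays and 70.2 to 70.5 in dnChd4 arrays. That gap was not a rise of the whole list. Lcp1, Lyz2, Cd68 and Cd14 differed by 1.53, 1.26, 0.58 and -0.66, and the other members by -0.28 to 0.11. The pan-leukocyte gene Ptprc was dim at 4.65 and 4.51 in dnBrg1 arrays and 4.47 and 4.48 in dnChd4 arrays. Of 14 myoepithelial and basal markers 1 was higher and 2 were lower, among them the basal keratin Krt14 at 7.49 and 7.24 in dnBrg1 arrays against 8.77 and 8.82 in dnChd4 arrays. Of 11 adipocyte markers 2 were higher and 1 lower.

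The remaining lists were read against 8.08% of all genes higher and 6.35% lower. Of 18 p53 targets 6 were higher and 3 lower. Beside Trp53inp1 the higher ones were Ccng1 (0.80), Phlda3 (0.76), Zmat3 (0.50), Ei24 (0.47) and Ercc5 (0.41). Of 20 unfolded protein response genes 2 were higher and 5 lower, including the membrane protein Herpud1 (-0.82), Xbp1 (-0.47) and the chaperone Hspa5 (-0.45). Of 20 YAP and Hippo genes 3 were higher and 5 lower, with Ajuba at -0.94. In the insulin-like growth factor system 3 of 15 were higher and 2 lower. Igf2r, which clears IGF2, read 5.70 and 5.95 in dnBrg1 arrays, against 7.54 and 7.37 in dnChd4 arrays. The adaptor Irs1 read 9.93 and 9.81 in dnBrg1 arrays, against 8.99 and 8.85 in dnChd4 arrays. The groups were apart for both genes, in opposite directions. Cell cycle lists stood near the background, with 1 of 24 S phase genes higher and 1 lower, and 0 of 24 mitotic genes higher and 2 lower. Of 37 Hox genes 1 was higher and 0 lower, and of 19 germline genes 0 were called.

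**Figure D3:**
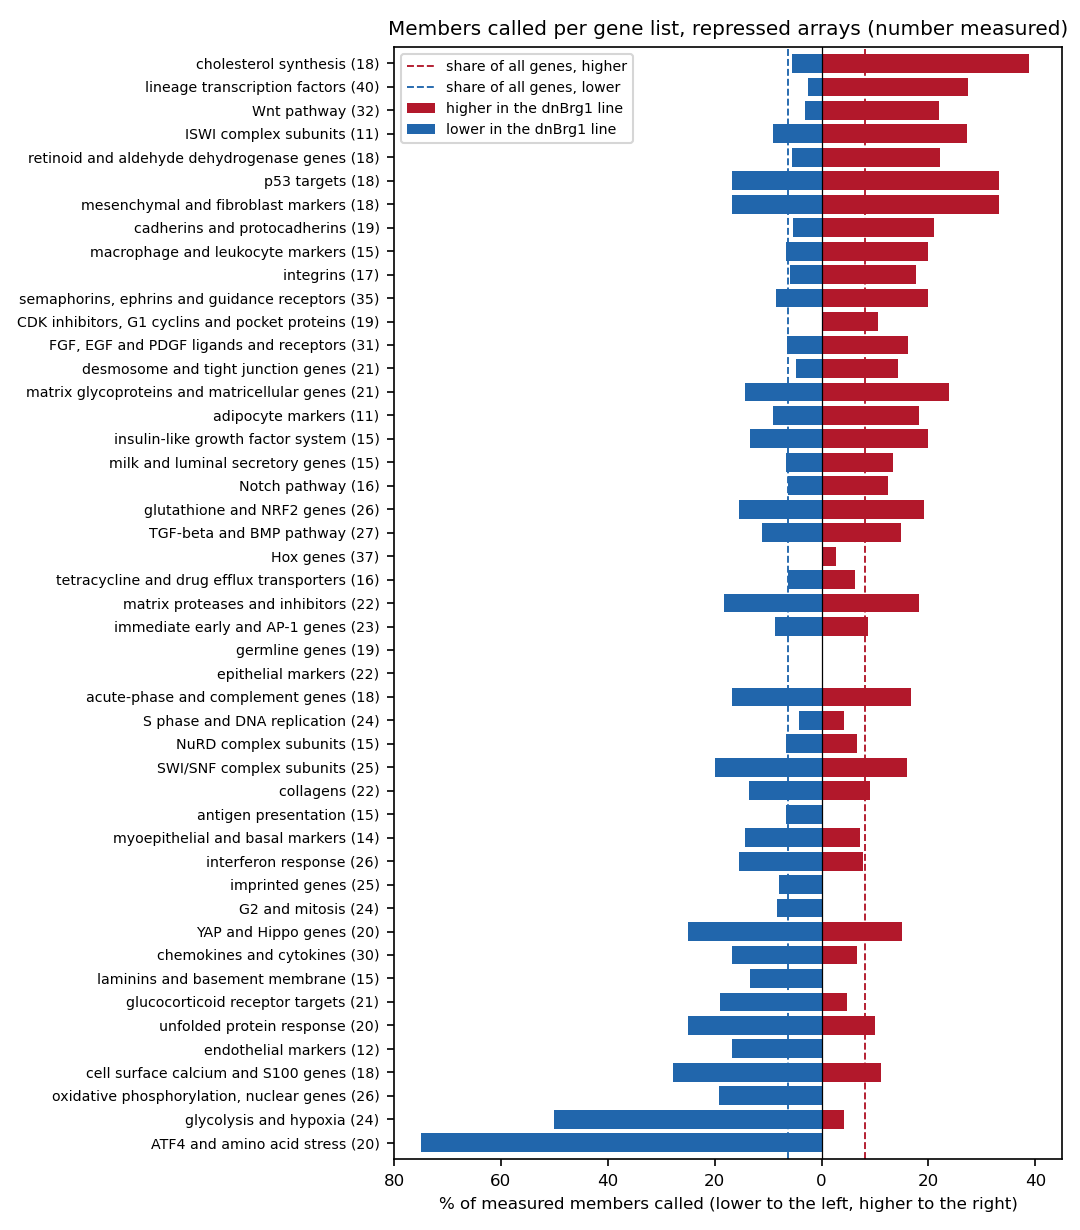
Percent of measured members of each gene list called higher (red, right) and lower (blue, left) in the repressed dnBrg1 line, with the number measured in brackets and the shares of all genes, 8.08% and 6.35%, as dashed lines. The ATF4 bar reaches 75% on the lower side and the cholesterol bar 38.9% on the higher side, while epithelial and germline markers show no bar.

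Clusters of related genes were noticed after the values were seen. The late cornified envelope genes, which encode small proteins of the outer skin layer, lie side by side on chromosome 3. Of 19 measured, 6 were lower in the dnBrg1 line, where 6.35% of all genes were, and 0 were higher. Lce1g read 5.93 and 6.15 in dnBrg1 arrays, against 7.94 and 8.33 in dnChd4 arrays. Lce1i read 5.34 and 5.44 in dnBrg1 arrays, against 6.75 and 7.34 in dnChd4 arrays. Lce1j read 7.53 and 7.63 in dnBrg1 arrays, against 8.93 and 9.26 in dnChd4 arrays. The other lower members were Lce1c (-0.88), Lce1h (-0.75) and Lce1e (-0.43), and 7 were lower under either other scaling. Induced arrays gave 5 lower, where 8.2% of all genes were, and 0 higher. The promoters of the 3 leading members are shown because the genes moved together, again with CpG pairs in capitals. They are from RefSeq on GRCm38.p6, all on the minus strand, at chr3:92752289-92752588 for Lce1g, chr3:92778850-92779149 for Lce1i and chr3:92790465-92790764 for Lce1j.
Lce1g: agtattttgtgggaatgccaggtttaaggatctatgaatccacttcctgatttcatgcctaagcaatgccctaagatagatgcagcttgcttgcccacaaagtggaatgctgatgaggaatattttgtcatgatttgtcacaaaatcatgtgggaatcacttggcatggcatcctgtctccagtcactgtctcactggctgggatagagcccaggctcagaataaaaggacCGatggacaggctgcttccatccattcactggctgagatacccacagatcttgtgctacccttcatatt
Lce1i: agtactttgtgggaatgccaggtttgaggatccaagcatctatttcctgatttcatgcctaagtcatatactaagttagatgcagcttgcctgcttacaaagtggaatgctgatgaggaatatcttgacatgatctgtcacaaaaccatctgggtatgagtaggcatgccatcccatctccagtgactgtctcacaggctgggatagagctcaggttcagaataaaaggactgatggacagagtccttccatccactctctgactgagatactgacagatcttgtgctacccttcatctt
Lce1j: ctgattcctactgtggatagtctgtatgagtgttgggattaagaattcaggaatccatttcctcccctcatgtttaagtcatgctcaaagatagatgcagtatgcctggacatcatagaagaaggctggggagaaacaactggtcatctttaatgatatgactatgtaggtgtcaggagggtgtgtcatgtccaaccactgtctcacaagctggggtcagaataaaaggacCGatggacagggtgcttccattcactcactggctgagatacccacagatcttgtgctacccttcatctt
Lce1g and Lce1i were identical at 86.0% of aligned positions, Lce1g and Lce1j at 67.4% and Lce1i and Lce1j at 66.8%. The windows hold 1, 0 and 1 CpG pairs. With promoters and genes so alike, the probe sets may share signal, and the 3 members are not independent.

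The beta-protocadherin genes encode neuronal adhesion proteins from a tandem array on chromosome 18. Of 22 measured, 10 were higher in the dnBrg1 line, where 8.08% of all genes were, and 1 was lower. Pcdhb2 read 6.65 and 6.44 in dnBrg1 arrays, against 3.72 and 3.91 in dnChd4 arrays. Pcdhb5 read 7.52 and 7.15 in dnBrg1 arrays, against 5.04 and 5.20 in dnChd4 arrays. Pcdhb7 read 6.31 and 6.13 in dnBrg1 arrays, against 4.52 and 4.46 in dnChd4 arrays. Pcdhb14 went the other way, at 4.39 and 4.62 in dnBrg1 arrays against 5.39 and 5.22 in dnChd4 arrays. The members are similar in sequence, so a probe set may read more than its own gene. Quantile normalization and median centring each left 8 higher and 1 lower, 6 were higher without dnChd4 replicate 2, and 8 were higher and 2 lower in induced arrays.

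Called genes were unevenly spread along the genome. On chromosome 15, 20.6% of genes were higher in the dnBrg1 line, on chromosome 19 it was 19.3% and on chromosome 4 it was 12.3%. On chromosome 18, 22.7% were lower, on chromosome 14 it was 18.6%, on chromosome 3 it was 17.1%, on chromosome 8 it was 16.3% and on chromosome X it was 15.2%. The genes were placed in reference order and cut into 385 windows of 50, whose median differences ran between -0.27 and 0.28. In the induced arrays, which share no array with the repressed ones, the window medians had a correlation of 0.868 with the repressed ones over those 385 windows, given as a description since windows of the same chromosome are not independent. The sign was the same in 284.

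Stretches of at least 3 neighbouring windows with a median beyond 0.08 in the same direction were marked, a rule set after the values were seen. There were 12 such runs. The lower runs held 1700 genes, 8.53% of all, with 448 of the 1267 lower calls and 26 of the 1611 higher calls. The higher runs held 1100 genes, 5.52% of all, with 300 of the higher calls and 10 of the lower calls. On chromosome X the run between Vamp7 and Rap2c held 200 genes, of which 79 were lower. Among its genes that were not dim, 89.4% were below 0, with a median of -0.50 in repressed and -0.54 in induced arrays. On chromosome 19 the run between Ighmbp2 and Ms4a4c held 250 genes, of which 83 were higher and 2 lower, with medians of 0.22 and 0.21. Snx32, a sorting nexin in that stretch, was higher by a log2 difference of 1.09. On chromosome 4 the run between Vmn2r122 and Aldoart1 held 350 genes, 95 of them higher, with medians of 0.24 and 0.25. On chromosome 8 the run between Lzts1 and Kars held 450 genes, 127 of them lower, with medians of -0.20 and -0.25. These 4 runs thus had nearly the same median in repressed and induced arrays.

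Other runs lay on chromosomes 2 (350 genes, 85 lower), 18 (200 genes, 50 lower) and 15 (200 genes, 54 higher). The dnSnf2h line did not share them: its median difference from the dnChd4 line in the 12 runs lay between -0.03 and 0.03. Most calls were outside the runs, as were most genes. Of all 19938 genes 17138 lay there, of which 7.5% were higher and 4.72% lower. Of the 15 ATF4 genes called lower, 13 were outside the runs, as were all 12 glycolysis genes called lower and 6 of the 7 cholesterol genes called higher. The ATF4 and cholesterol counts are near the share of all genes outside the runs. Copy number was not measured, and the cause of the runs was not tested.

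**Figure D4:**
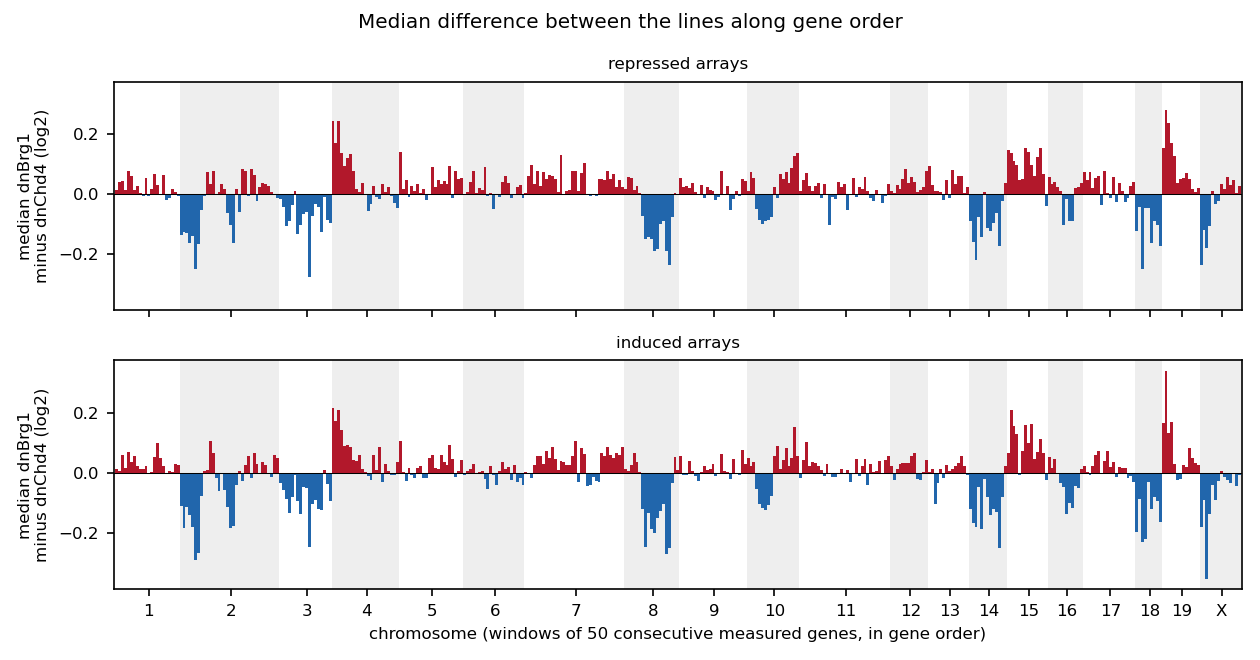
Median log2 difference (dnBrg1 minus dnChd4) of each window of 50 consecutive measured genes along chromosomes 1 to 19 and X, in repressed arrays (top) and induced arrays (bottom); red is above 0 and blue below. The same stretches of chromosomes 2, 4, 8, 14, 15, 18, 19 and X rise or dip in both panels.

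The differences were then read in the induced arrays of the same lines. Those arrays did not enter the size of the repressed differences. They were part of the same fit, however, and helped to set the spread behind the calls. The calls were therefore not independent of the induced arrays. Of the 2878 genes called between the repressed lines, 92% had the same sign between the induced lines, against 59.6% of genes not called, and 1669 were called in the same direction in both. That is 58% of the calls between the repressed lines and 54.2% of those between the induced lines. Another 28 were called in opposite directions. Of the 243 genes that differed by at least 2-fold, 222 were called the same way in induced arrays. Nckap1l read 8.33 and 8.31 in induced dnBrg1 arrays, against 4.63 and 4.55 in induced dnChd4 arrays. Myh10 read 8.10 and 7.99 in induced dnBrg1 arrays, against 4.85 and 4.79 in induced dnChd4 arrays. Cdh5 read 4.37 and 4.38 in induced dnBrg1 arrays, against 8.33 and 8.18 in induced dnChd4 arrays. These leading genes kept nearly their whole difference, as did Nid1, at 4.77 and 4.92 in induced dnBrg1 arrays against 7.70 and 7.68 in induced dnChd4 arrays.

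Some differences changed with the state of the transgenes. The interaction test was passed by 255 genes, 142 of them among the genes called between the repressed lines, which were 2878 of 19938. The test contains the repressed difference, so genes called for that difference pass it more readily. Lcp1, the actin-bundling L-plastin, read 6.24 and 6.13 in repressed dnBrg1 arrays, against 4.73 and 4.58 in repressed dnChd4 arrays. In induced cells it read 6.69 and 6.85 in dnBrg1 arrays, against 7.60 and 7.54 in dnChd4 arrays, so the sign turned (interaction adjusted p = 1.01e-06). Sting1 read 5.52 and 5.64 in induced dnBrg1 arrays, against 9.52 and 9.41 in induced dnChd4 arrays, a larger gap than in repressed cells (interaction adjusted p = 2.1e-06). Cxcl12 read 7.42 and 7.38 in induced dnBrg1 arrays, against 7.26 and 7.10 in induced dnChd4 arrays, so its difference was smaller there (interaction adjusted p = 0.00156). The guidance receptor Robo1 was higher in the repressed dnBrg1 line by 0.45 and lower in the induced line by a difference of -0.81 (interaction adjusted p = 0.000112).

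**Figure D5:**
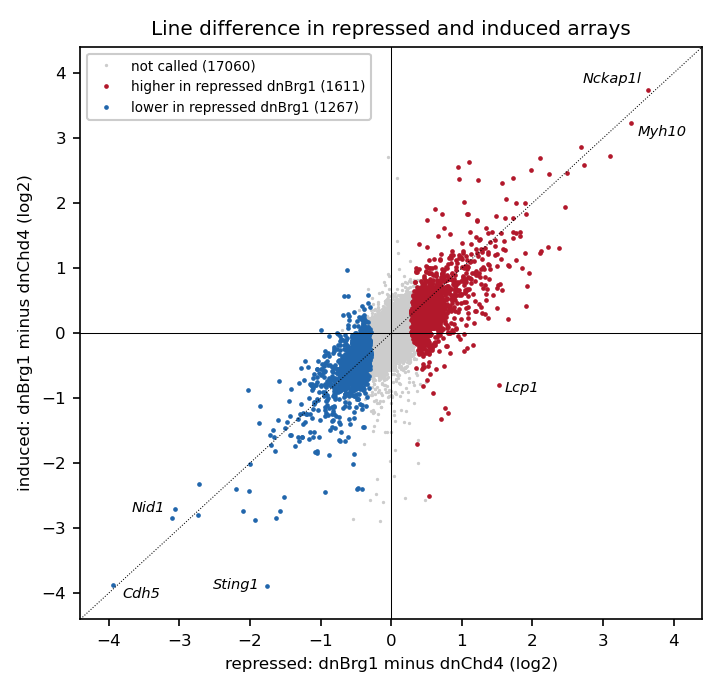
Each point is a gene, placed by its log2 difference (dnBrg1 minus dnChd4) in repressed arrays (x axis) and in induced arrays (y axis), coloured red or blue where it was called higher or lower between the repressed lines. Nckap1l, Myh10, Cdh5 and Nid1 lie near the dotted line of equal difference, whereas Lcp1 lies below 0 and Sting1 below the line in induced arrays.

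The repressed dnSnf2h arrays gave a further point of comparison, as a description with no test. For 2626 of the 2878 called genes (91.2%) the dnSnf2h mean lay nearer to the dnChd4 mean than to the dnBrg1 mean, and for genes at least 2-fold apart it did so in 239, against 4. The same share over all genes is not given here. Nckap1l read 4.43 and 4.47, and Cdh5 read 7.79 and 8.0 in dnSnf2h arrays, which is the level of the dnChd4 line. Trp53inp1 was less settled, at 6.07 and 7.32. Whole arrays followed the same order, with correlations between dnChd4 and dnSnf2h arrays of 0.9936 to 0.9972 and between dnBrg1 and dnSnf2h arrays of 0.987 to 0.9895. Replicate dnSnf2h arrays correlated at 0.9937, no higher than dnSnf2h arrays did with dnChd4 arrays. For most genes that separated the repressed dnBrg1 and dnChd4 lines, the dnBrg1 line was therefore the further of these from the dnSnf2h line.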

How the data were processed

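RNA of lines derived from 3134 mouse mammary cells was measured on Mouse Gene 1.0 ST arrays of Affymetrix. The deposited table holds log2 signals, which the authors made with Affymetrix Expression Console, per the submitters' processing notes. Not given in the sources used here were its version, the summarization, the normalization and the build. Values were used without further scaling, and arrays give no read depth.

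Of 35557 probe sets, 21789 had 1 symbol in the platform annotation, 1621 several and 12147 none. The brightest singly named probe set of each gene was kept, which left 19938 genes. The 12 arrays of the dominant-negative lines were fitted with a mean per group in limma 3.58.1 (R 4.3.3), with Benjamini-Hochberg adjustment over all genes, two-sided, threshold 0.05, and the fit was tested on simulated data. The interaction is the induced minus the repressed difference. Replicate numbers were not treated as pairs: replicate differences of the repressed lines correlated at 0.123.

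Named were the 15 highest and 15 lowest called genes, the 3 members of each of 47 lists (1051 entries, 996 measured) with the smallest adjusted p, and fixed remodeler genes. The 15 in each direction also had to have dnBrg1 arrays that did not overlap the dnChd4 arrays, which held for every called gene. Predicted, olfactory and small RNA genes were passed over. Further members, families and runs were picked after values were seen, and the members and lists were chosen with earlier results of these data known. Alternatives were other sets of arrays, the replicate block, eBayes settings, array weights, dim genes removed, quantile normalization, median centring, all probe sets, stricter thresholds, window sizes and each array left out.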

Additional observations from a re-analysis of the deposited data

Results flagged for a closer look

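For 255 genes the difference between the lines itself differed between induced and repressed cells by the limma interaction test. Some of the named genes among them are given here as the induced difference minus the repressed difference, dnBrg1 minus dnChd4, on the log2 scale. The list is not complete. Chd4, at -2.04, and Robo1, at -1.26, also passed, as did other genes named above and below. Among secreted and matrix genes the change was -1.44 for Cxcl12, 1.14 for Cxcl3, -1.49 for Saa3, -1.92 for the siderophore binder Lcn2, -0.87 for Thbs2, -1.2 for Mmp3, 0.74 for Timp1, -0.87 for Timp3 and -0.84 for Sema3c. The positive values of Cxcl3 and Timp1 stand for a lower level in the dnBrg1 line that was smaller in induced cells. Among signalling and cytoskeletal genes it was -2.33 for Lcp1, -2.13 for Sting1, -1.21 for Igf2r, -0.99 for Irs1 and -0.92 for S100a4. Among metabolic genes it was -2.04 for Aldh1a1, 1.52 for the fatty acid receptor Cd36, -1.19 for the lipid droplet gene Plin4 and -0.95 for Padi3. Among developmental regulators it was -1.14 for Tbx3 and -1.02 for Eya1.

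Aldh1a1 was higher in the repressed dnBrg1 line, at 6.32 and 6.20 in dnBrg1 arrays against 5.70 and 5.20 in dnChd4 arrays. In induced cells it was lower, at 7.65 and 7.57 in dnBrg1 arrays against 8.74 and 8.95 in dnChd4 arrays. Cd36 was dim in each repressed array and read 5.91 and 5.98 in induced dnBrg1 arrays, against 3.23 and 3.42 in induced dnChd4 arrays. The cause of these changes was not tested.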

How the results depend on the processing

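Counts changed more with the processing than the 30 leading genes, which were chosen for their large differences. Between the repressed lines, a fit with all 17 arrays gave 444 higher and 365 lower, a threshold of 0.01 gave 907 and 734, and a minimum of 1.5-fold gave 565 and 421. Leaving out each of the 12 arrays in turn gave 720 to 1988 higher and 625 to 1520 lower. Where that left a group with 1 array, its spread was taken to be like that of the other groups. Between the induced lines the 17 arrays gave 431 higher and 563 lower, array weights 2522 and 2490, a threshold of 0.01 gave 798 and 1042, and a minimum of 1.5-fold 454 and 624. There the range over arrays left out was 689 to 1720 higher and 897 to 1854 lower. For the interaction, a higher and a lower count of 7 and 19 came with 17 arrays, 136 and 414 with array weights, 18 and 71 with all probe sets and 22 and 93 at 0.01, and arrays left out gave 20 to 86 and 85 to 296. The window correlation was 0.823 with 25 genes, 0.925 with 100 genes and 0.946 without dim genes. The replicate block gave 1525 higher and 1194 lower between the repressed lines, and 2679 of its 2719 calls were shared with the unblocked fit. Of 162 named genes, 71 lost the call with 17 arrays and 0 reversed. The dim gene Smarca1 differed by -0.0431 to 0.0282 as arrays were left out, and by 0.0282 without dnBrg1 repressed replicate 1. Quantile normalization moved the median of all genes to -0.03 and median centring likewise. Between the repressed lines, quantile normalization gave 1719 higher and 1645 lower, and median centring gave 1161 and 1300. The main fit gave 1611 and 1267, so whether more genes were higher than lower depended on the scaling. With 2 arrays a group, many small differences may go undetected, though some were called, such as that of Mfge8 at 0.28 on the log2 scale.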

Other observations

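A group of genes named after their values were seen was not called between the repressed lines and differed more between the induced ones. Acta2, the smooth muscle actin gene, read 6.01 and 5.97 in induced dnBrg1 arrays, against 8.11 and 9.0 in induced dnChd4 arrays. In repressed cells it read 6.35 and 6.62 in dnBrg1 arrays, against 5.94 and 6.06 in dnChd4 arrays, which is higher in both dnBrg1 arrays but not called, and the interaction was called (limma interaction adjusted p = 0.000186). Tagln, another contractile gene, read 5.58 and 5.37 in induced dnBrg1 arrays, against 7.71 and 8.43 in induced dnChd4 arrays (limma interaction adjusted p = 5.14e-05). The calponin gene Cnn1 differed by -0.96 in induced cells and 0.01 in repressed cells. Cd74, the invariant chain of antigen presentation, read 4.4 and 4.49 in induced dnBrg1 arrays, against 5.94 and 5.99 in induced dnChd4 arrays, and was dim in both repressed lines.

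Genes of chromosome 18 did not all move alike. The run between Kcnn2 and Atp9b held 50 lower genes of 200, and Etf1, a translation release factor on that chromosome, differed by -0.77, while 10 of 22 beta-protocadherin genes of the same chromosome were higher and 1 was lower.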
